A study of Mus musculus with 17 samples.

Results

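Messenger RNA of the testis was compared between mice lacking Mael (genotype Mael-/-, 2 libraries, a and b) and wild-type mice (2 libraries, a and b), all of strain 129SvJae. These 4 libraries are part of a series of 17, which also holds ribosome footprints and small RNA of the same genotypes and RNA precipitated with anti-Mael or rabbit IgG from wild-type testis. Whole testis was lysed in 1% Triton, cleared by centrifugation and extracted with Trizol, and random-primed libraries were made with a kit that loses strand information. The members are the 18286 transcripts that have a coding size among the 37991 rows of each table, and every one of them was accounted for. No counts were present in any mRNA library for 2465 transcripts, 4640 had counts but did not pass the filter on low values, and 11181 were tested. Ages, and whether the libraries of a genotype came from separate animals, are not given in the labels. The p-values therefore measure only the spread between these libraries, which may be technical.

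Mael encodes Maelstrom, a germ cell protein with a domain related to the HMG box, found in the perinuclear granules of germ cells. It acts in the piRNA pathway, in which small RNAs guide PIWI proteins against transposons, and male mice without it are sterile because spermatogenesis arrests. In the testis, messenger RNAs of haploid spermatids are made early, held in ribonucleoprotein particles and translated later, so that levels of mRNA and of ribosome occupancy can differ. A whole-testis library mixes all germ cell stages and somatic cells, and fewer cells of a type cannot be told apart from less RNA per cell.

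The tables name transcripts by Ensembl identifier only. Of 37991 identifiers, 0 were found in the reference tables, so gene symbols, and the transcript of Mael itself, could not be assigned, and the tissue was not checked against marker genes. Transcripts are therefore described here by their coding size, their length, their level and their behaviour in other assays, and identifiers are given for the pair with the deepest falls and the pair with the largest rises among transcripts of at least 5 CPM.

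The libraries held 15372210 and 6732376 counts in wild type a and b, and 5746533 and 4130509 in Mael-/- a and b. Replicates differed by more than sampling noise, with a chi-square of 24.2 per degree of freedom in wild type and 32.6 in Mael-/-. Across tested transcripts the log2 levels of wild type a and b correlated with r = 0.977, and those of Mael-/- a and b with r = 0.943. The library Mael-/- a was closer to both wild-type libraries (r = 0.930 and 0.889) than Mael-/- b was (r = 0.835 and 0.807). These values describe the libraries across transcripts, which are not independent replicates.

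One library stood apart in a small set of transcripts. In Mael-/- b, 20 transcripts had at least 20 counts and at least 10 times the level of any other mRNA library in CPM (counts scaled to a library total of 1000000). The same rule found 1 transcript in wild type b and 0 in wild type a and in Mael-/- a. Summed over the 20 transcripts, the level was 400.0 CPM in Mael-/- b and 3.45, 6.98 and 6.79 CPM in wild type a, wild type b and Mael-/- a. The footprint libraries gave 878 CPM for the same transcripts in Mael-/- b and 5.39, 12.5 and 9.50 CPM in the other 3. Of the 20 transcripts, 16 met the rule in both assays, so the mRNA and footprint libraries lettered b in Mael-/- shared this set. Only 1 of the 20 passed the filter and entered the test, and it is the transcript with the larger of the rises given by identifier below. This rule was chosen after the values were seen, and what the transcripts encode is not known here.

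Many testis transcripts differed between the genotypes, and the deep changes were mostly falls. Among the 11181 transcripts tested, 1979 were lower (17.7%) and 1696 higher (15.2%) in Mael-/-, by edgeR's quasi-likelihood test at an adjusted p under 0.05. Falls of more than 4-fold made up 602 of the lower calls (5.38% of transcripts tested), against 51 rises of that size (0.456%). The median log2 fold change of all tested transcripts was 0.21 (interquartile range -0.69 to 0.92), so a value near 0.21, not 0, marks the middle of these data. For every transcript called in either direction the genotypes did not overlap in CPM. That is a weak criterion here, since both Mael-/- libraries lay below both wild-type libraries for 26.8% of all tested transcripts and above them for 52.5%.

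**Figure D1:**
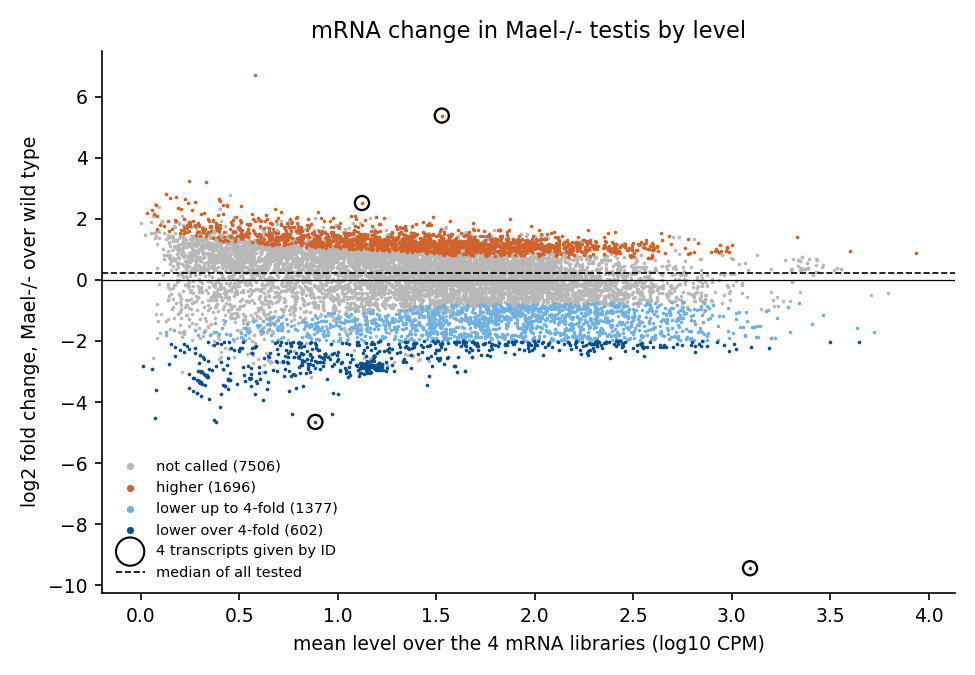
Log2 fold change of each of the 11181 tested transcripts (Mael-/- over wild type, vertical) against its mean level over the 4 mRNA libraries (log10 CPM, horizontal), coloured by call, with the median of all tested as a dashed line at 0.21. Falls beyond 4-fold (602) lie mostly at low and middle levels, while the calls among the most abundant transcripts are mostly falls up to 4-fold; circles mark the 4 transcripts given by identifier.

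In the fit used here the calls lie close to their threshold, but how close depends on the fit. The smallest adjusted p was 0.0330 (edgeR), and 0 transcripts passed an adjusted p of 0.01, while 5721 had an unadjusted p under 0.05. The smallest adjusted p was 0.0262 to 0.0402 in edgeR with other scalings, 6.01e-14 with no filter beyond 1 count, 0.000142 with a replicate block and 2.80e-67 in DESeq2. In fits with 1 wild-type library the spread comes from the Mael-/- pair alone, whose a minus b differences had an SD of 0.755 in log2 CPM against 0.506 in wild type. Without wild type a, or without wild type b, 0 transcripts were called in either direction by edgeR (3312 and 2558 at an unadjusted p under 0.05), and the smallest adjusted p was 0.155 and 0.215, so these fits say nothing about the stability of a single change. Without Mael-/- a or b it was 0.000167 and 0.000165 (edgeR). Without Mael-/- b, 951 were higher, 240 were lower by over 4-fold and 19 higher by over 4-fold; without Mael-/- a, those falls and rises numbered 1253 and 100. All 1979 lower and all 1696 higher transcripts kept their sign in each of the 4 fits that left out a library, 1475 of the lower and 660 of the higher ones by more than 2-fold in all 4, and 235 of the 602 deep falls stayed beyond 4-fold in all 4. The kept sign was all but fixed in advance, because the genotypes did not overlap in CPM for any called transcript. These fits also share libraries with the full fit and are no independent support. The balance of the calls depends on scaling: 46.1% of calls were rises with TMM scaling, 69.1% with library totals and 27.4% with DESeq2 size factors in edgeR.

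The transcript with the deepest fall, ENSMUST00000038782, has a coding part of 435 codons in a transcript of 1546 nt. It had 38599 and 16411 counts in wild type a and b, and 39 and 6 counts in Mael-/- a and b. As levels these were 2511 and 2438 CPM against 6.79 and 1.45 CPM. Both Mael-/- libraries were thus far below both wild-type libraries, and the wild-type libraries were close to each other. The log2 fold change was -9.44 ± 0.683 (SE; edgeR quasi-likelihood, adjusted p = 0.0330), and it was -9.43 and -9.47 without wild type a and b, and -11.18 and -8.77 without Mael-/- a and b. Per length, its wild-type level was 2017 and 1958 CPM per kilobase of counted coding sequence, at percentile 99.6 of transcripts with at least 50 counted codons. Its footprints went from 338 and 358 CPM to 3.66 and 5.40 CPM, which gives -6.43 ± 0.199 on the log2 scale (SE; edgeR, adjusted p = 1.56e-08). Without gene symbols, whether ENSMUST00000038782 is the transcript of the deleted gene Mael itself could not be told, so its fall cannot be read as a response to the loss.

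The next deepest fall under the rule used here (called, at least 5 CPM on average, no overlap) was ENSMUST00000020965, with 415 coding codons in 1500 nt. Its counts were 101 and 155 in wild type a and b and 7 and 0 in Mael-/- a and b. In CPM the wild-type libraries stood at 6.57 and 23.0 and the Mael-/- libraries at 1.22 and 0, where 0 counts allow up to 0.726 CPM. The wild-type libraries differed from each other more than 3 times, and the Mael-/- ones lay below both. The log2 fold change was -4.65 ± 1.03 (SE; edgeR, adjusted p = 0.0330). Its size rests on single libraries, at -5.31 and -3.52 without wild type a and b and -3.83 without Mael-/- b. Without Mael-/- a it was -10.08, which is no bound because the remaining Mael-/- library has 0 counts. Footprints were scarce, with 4 and 15 counts in wild type and 0 in either Mael-/- library, and did not pass the filter. Under the same rule 1805 transcripts were eligible as lower, and the third and twelfth deepest falls were -4.41 and -3.19 on the log2 scale.

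Under that rule the largest rise, ENSMUST00000046611 (608 coding codons, 2255 nt), came from 1 library. Its counts were 15, 12, 16 and 535 in wild type a, wild type b, Mael-/- a and Mael-/- b, or 0.976, 1.78, 2.78 and 129.5 CPM. Mael-/- a was near the wild-type libraries and Mael-/- b far above all 3. The fitted log2 fold change of 5.38 ± 1.64 (SE; edgeR, adjusted p = 0.0491) became 0.83 without Mael-/- b (edgeR, adjusted p = 0.354). Footprints had the same pattern, at 1.797, 3.95, 4.75 and 148 CPM in the same order.

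The second, ENSMUST00000046665 (1287 coding codons, 8655 nt), rose in both Mael-/- libraries. It had 35 and 31 counts in wild type and 121 and 104 in Mael-/-, or 2.28 and 4.60 CPM against 21.1 and 25.2 CPM. The Mael-/- libraries were close to each other and above both wild-type ones. The log2 fold change was 2.51 ± 0.433 (SE; edgeR, adjusted p = 0.0330), with 2.04 and 3.06 without wild type a and b and 2.46 and 2.40 without Mael-/- a and b. Its footprints rose too, from 2.79 and 5.16 CPM to 9.14 and 15.6 CPM, with a log2 fold change of 1.53 ± 0.473 (SE; edgeR, adjusted p = 0.0290). Beyond these, rises were small, with the third at 2.23 and the twelfth at 2.03 among 1489 eligible transcripts. One transcript below the 5 CPM limit (3.81 CPM on average) had a larger fitted change, from 1 and 0 counts in wild type a and b to 19 and 49 in Mael-/- a and b, and was chosen for mention after its values were seen. Like every other transcript, the 4 given by identifier were not called in the fits with 1 wild-type library. Their direction there was the same as in the full fit, which their choice by no overlap all but fixed.

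**Figure D2:**
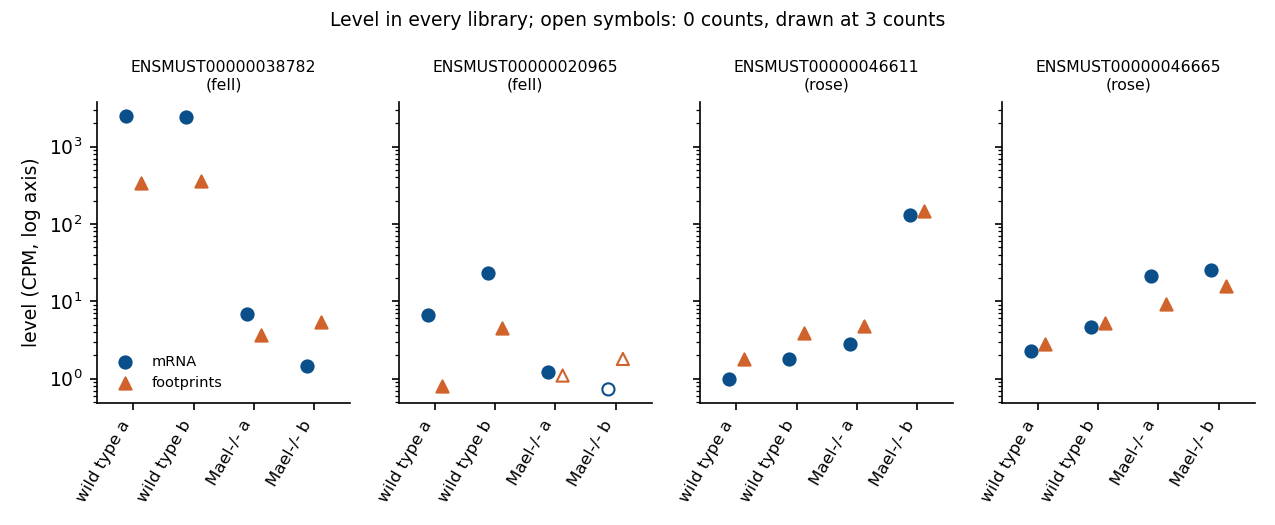
Level in CPM (log axis) of the 4 transcripts given by identifier in each of the 4 mRNA libraries (circles) and 4 footprint libraries (triangles), 1 point per library, with open symbols for 0 counts drawn at the level of 3 counts. ENSMUST00000038782 drops from 2438 CPM or more to 6.79 CPM or less, and ENSMUST00000046611 is high in Mael-/- b alone.

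Transcripts lower in Mael-/- made up a large part of wild-type testis mRNA. The 1979 lower transcripts held 40.3% ± 0.0665 (SD, n = 2) of wild-type counts and 17.3% ± 4.73 of Mael-/- counts, the latter being 20.6% in library a and 13.9% in library b. The 602 deep falls went from 7.64% and 8.74% in wild type a and b to 2.81% and 1.44% in Mael-/- a and b. The small wild-type SD of all lower transcripts hides opposite shifts of its parts. In wild type the SD was 0.778 for deep falls and 0.845 for smaller falls. The 1696 higher transcripts held 7.28% and 6.67% in wild type and 17.3% and 18.6% in Mael-/-. These shares describe the called transcripts in the libraries that called them and test nothing. Among the 100 transcripts with the most wild-type counts, 47 were lower, 11 of them by over 4-fold, 2 were higher and 51 were not called, around a median log2 fold change of -0.73. Over all 11181 tested, 17.7% were lower, 5.38% lower by over 4-fold and 15.2% higher. Choosing by wild-type counts favours falls, and the 100 transcripts with the most Mael-/- counts had 17 higher and 12 lower. The sets share 64 transcripts.

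**Figure D3:**
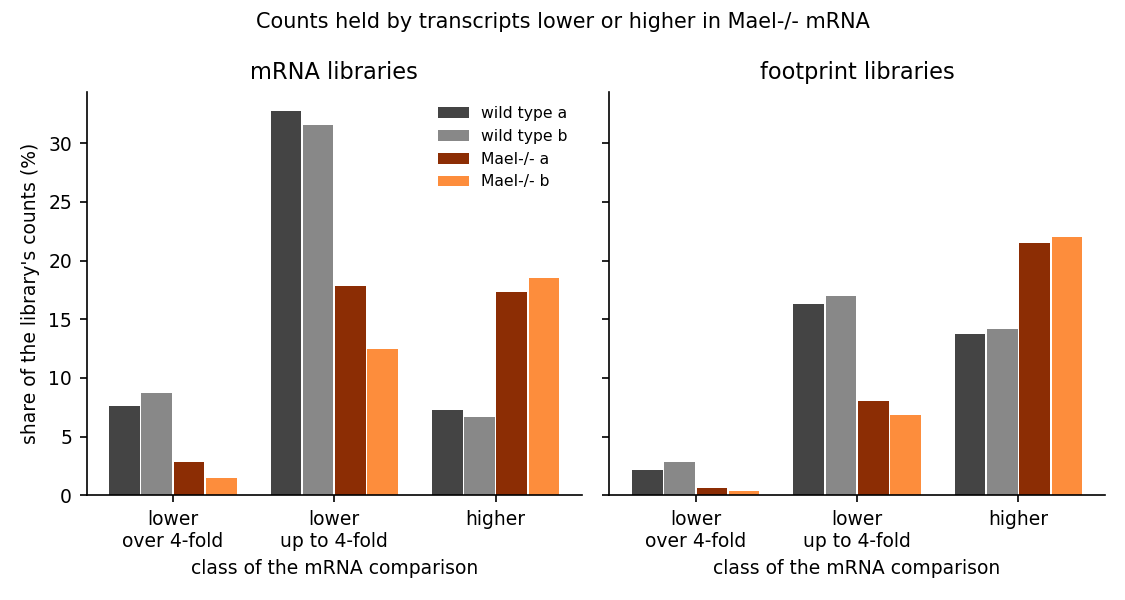
Share of each library's counts (percent, vertical) held by the transcripts that the mRNA comparison called lower over 4-fold, lower up to 4-fold or higher, in the 4 mRNA libraries (left) and the 4 footprint libraries (right), 1 bar per library. In mRNA the transcripts lower up to 4-fold take 32.7% and 31.5% of wild-type counts against 17.8% and 12.5% in Mael-/-, and the 2 Mael-/- libraries differ more in the lower classes than the wild-type libraries do.

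The Mael-/- libraries were not alike in the depth of the falls. Of the 602 deep falls, 558 were lower in Mael-/- b than in Mael-/- a, and 207 were more than 3 times lower there. Among the 7506 transcripts not called, 3434 were lower in Mael-/- b and 148 were more than 3 times lower. Of the 207, 107 were among the 189 deep falls of 6 exact coding sizes described below, which may share reads. Over the 602, the median level was 17.6 and 32.2 CPM in wild type a and b, 7.13 CPM in Mael-/- a and 2.18 CPM in Mael-/- b. Wild type b was above wild type a for 526 of them, 188 of which had those 6 sizes, and for 3386 of the 7506 not called. Of the 7506 not called, 4072 were higher in Mael-/- b than in Mael-/- a, 215 of them more than 3-fold. Of the 1696 higher transcripts, 1082 were higher in Mael-/- b than in Mael-/- a, and only 3 exceeded it more than 3-fold. Their median levels were 16.4 and 14.6 CPM in wild type and 40.4 and 45.2 CPM in Mael-/- a and b. What sets the libraries of a genotype apart was not tested.

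A small number of exact coding sizes held many of the deep falls. Transcripts with coding parts of 205, 213, 214, 228, 233 and 235 codons made up 2.80% of transcripts tested and 31.4% of the deep falls (189 of 602). Of 313 tested transcripts of these sizes, 208 were lower, 189 of them by over 4-fold, and 12 were higher, with a median log2 fold change of -2.58. Of the 10868 tested transcripts of other sizes, 413 fell by over 4-fold (3.80%) and the median was 0.24. These 6 sizes were picked because they held the most deep falls, 14 or more each where the next size held 8, so the contrast is a description and no test.

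Of the 110 tested transcripts with 228 codons, the most common of these sizes, 66 fell by over 4-fold. Their counts were alike from transcript to transcript, with medians of 255.5, 218, 40.5 and 4 in wild type a, wild type b, Mael-/- a and Mael-/- b and ranges of 82 to 305, 85 to 278, 13 to 51 and 1 to 6. In CPM the medians were 16.6 and 32.4 in wild type and 7.05 and 0.968 in Mael-/-. The step from wild type a to wild type b was upward for all 66, and 63 of them were more than 3 times lower in Mael-/- b than in Mael-/- a. The 27 deep falls with 235 codons had nearly the same levels, at 16.3, 33.9, 6.96 and 0.968 CPM. The 33 with 233 codons were scarcer, at 2.41, 5.20, 0.696 and 0.242 CPM. Their log2 fold changes ran from -4.65 to -2.37.

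The deep falls at 205 codons were the most abundant of these sizes, with medians of 37.7 and 79.5 CPM in wild type and 16.5 and 10.7 CPM in Mael-/-, and those at 213 codons stood at 15.5, 23.9, 5.92 and 2.42 CPM. Whether these are near-identical copies that share reads cannot be told from the tables, and no source used here says how the authors assigned reads that match several transcripts. The number of separate RNAs behind the 189 transcripts is therefore uncertain. Without the 6 sizes the count of deep falls is 413, still far above the 51 deep rises, none of which had these sizes.

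Footprints of these transcripts were few but pointed the same way. The 189 deep falls held 4921 and 8852 footprint counts in wild type a and b and 736 and 201 in Mael-/- a and b, in libraries of 5009051, 3291588, 2735792 and 1668197 counts. For the 66 with 228 codons the counts were 332, 1155, 43 and 0 (0 allows up to 3), and none of the 66 passed the filter of the footprint test. A read that matches several copies may be counted in each, so these sums can exceed the number of reads.

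Calls were then counted by coding length and by the length outside the coding part, with no test between classes. The size column of the mRNA tables is in codons with 20 left out, so that 3 times the size is the counted length in nt, and the whole transcript size is listed elsewhere in the series. The share of deep falls was highest at 500 to 1000 nt of counted coding length, at 10.6% of 3040 tested against 5.38% of all tested, and without the 6 sizes the share there was 4.84%. They made up 3.67% under 500 nt, 3.34% at 1000 to 2000 nt, 3.70% at 2000 to 4000 nt and 2.48% over 4000 nt. Rises were called for 8.84% of transcripts under 500 nt and 14.3% to 17.9% of the longer classes, against 15.2% of all tested.

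The median change of the longest coding parts rests on 1 library. Relative to the median of all tested transcripts, it was -0.18 under 500 nt, -0.14 at 500 to 1000 nt, 0.13 at 1000 to 2000 nt, 0.11 at 2000 to 4000 nt and 0.30 over 4000 nt. Without Mael-/- b the value over 4000 nt was -0.10 and the one at 2000 to 4000 nt -0.03, those under 500 nt and at 500 to 1000 nt both shrank to -0.04, and the one at 1000 to 2000 nt was 0.11. The shorter classes kept their sign in all 4 pairings of a Mael-/- with a wild-type library, from -0.36 to -0.02 under 500 nt, -0.23 to -0.03 at 500 to 1000 nt and 0.08 to 0.14 at 1000 to 2000 nt. At 500 to 1000 nt, however, the median relative to all tested shrank from -0.14 to -0.02 when the 6 sizes were left out. The 6 sizes all lie in that class, and the pairings were not repeated without them. Taken library against library, transcripts over 4000 nt lay 0.63 and 0.41 above the middle in Mael-/- b against wild type a and b, and at 0.03 and -0.15 in Mael-/- a.

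By length outside the coding part, the share of lower calls was smallest in the longest transcripts. Of transcripts with over 2000 nt outside it, 9.42% were lower and 1.00% lower by over 4-fold, and at 1000 to 2000 nt these shares were 14.1% and 1.91%. At 1 to 500 nt they were 23.3% and 8.32%, and in the 595 tested transcripts with none listed 22.0% and 15.6%. Leaving out the 6 sizes gave 1.01% and 1.89% deep falls in the longest classes, 6.89% at 1 to 500 nt and 7.58% with none. The median relative to all tested was -0.30 at 1 to 500 nt and 0.30 over 2000 nt, and without Mael-/- b these shrank to -0.18 and 0.15. Here these 2 classes stood in the same order in every pairing of libraries, from -0.38 to -0.15 at 1 to 500 nt and from 0.11 to 0.39 over 2000 nt. The median length outside the coding part was 381 nt among deep falls, 706 nt among the other falls, 929 nt among transcripts not called and 987.5 nt among rises.

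**Figure D4:**
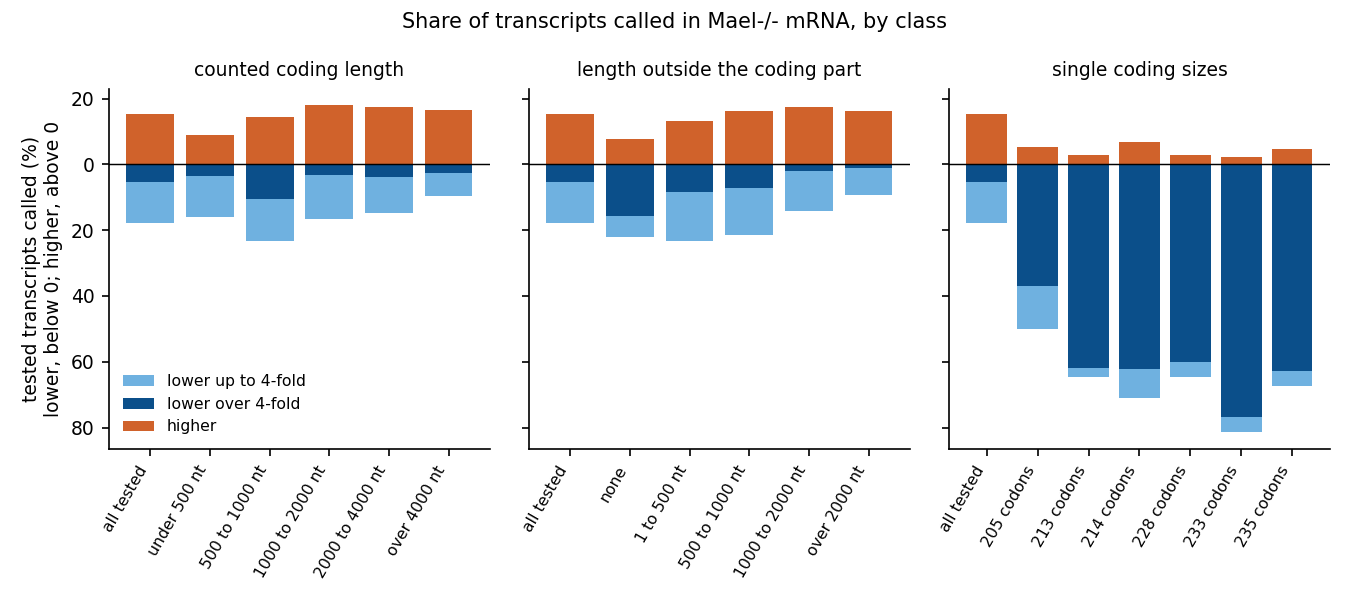
Percent of tested transcripts called lower (below 0, dark for over 4-fold) and higher (above 0) in Mael-/- mRNA, by counted coding length (left), length outside the coding part (middle) and the 6 single coding sizes (right), each beside all tested transcripts. The single sizes stand at 50.0% to 81.4% lower, against 17.7% of all tested, and the share of deep falls declines with length outside the coding part.

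The balance of calls also varied with level. Tested transcripts were split into 5 equal classes by their mean CPM over the 4 libraries. The most abundant class (103 to 8625 CPM) had 666 lower (29.8%) and 278 higher (12.4%) transcripts among 2236. Of all tested, 17.7% were lower and 15.2% higher, so both its excess of falls and its shortfall of rises are relative to those shares. The median log2 fold change of this class was -0.28, or -0.49 relative to all tested. The least abundant class (1.01 to 6.35 CPM) had 219 lower (9.79%) and 262 higher (11.7%) among 2237, with a median of 0.66. Both shares were below those of all tested. In the least abundant class, 152 of the 219 falls and 39 of the 262 rises were beyond 4-fold. The most abundant class had 101 deep falls and 0 rises beyond 4-fold (edgeR). Deep falls were thus 6.79% and 4.52% of these classes, against 5.38% of all tested.

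Footprints are a second readout of the same transcripts in libraries the mRNA test did not use, although whether both came from the same lysates is not given in the labels. Of the 9783 transcripts tested in footprints, 20.3% were lower and 11.3% higher (edgeR, adjusted p under 0.05). Of the 337 deep mRNA falls tested there, 320 were lower (95.0%) and 0 higher, with a median log2 fold change of -2.51 in footprints and -2.20 in mRNA. Of 1252 smaller falls, 839 were lower and 3 higher, with medians of -1.01 and -1.35. Of 1578 transcripts higher in mRNA, 686 were higher (43.5%) and 1 lower, with medians of 0.52 and 1.18. Among 6460 transcripts not called in mRNA, 819 were lower and 403 higher. A transcript can pass the footprint filter through 1 genotype alone, so mRNA falls may have entered this test through their wild-type footprints. How many did so was not counted. Without Mael-/- b, 700 transcripts were higher in footprints where 1102 were with it.

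Footprint shares moved with mRNA shares, from a lower start for the falls and a higher start for the rises. The 602 deep falls held 7.64% and 8.74% of wild-type mRNA counts but 2.19% and 2.87% of wild-type footprint counts, and 0.606% and 0.356% of Mael-/- footprint counts. The 1696 higher transcripts held 7.28% and 6.67% of wild-type mRNA counts but 13.7% and 14.2% of wild-type and 21.5% and 22.0% of Mael-/- footprint counts. Footprint tests do not cover 265 of the deep falls, of which 128 had the 6 coding sizes and 10 had 0 footprint counts in all 4 libraries. Their median mRNA level was 6.71 CPM, against 41.1 CPM for the 337 that were tested.

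**Figure D5:**
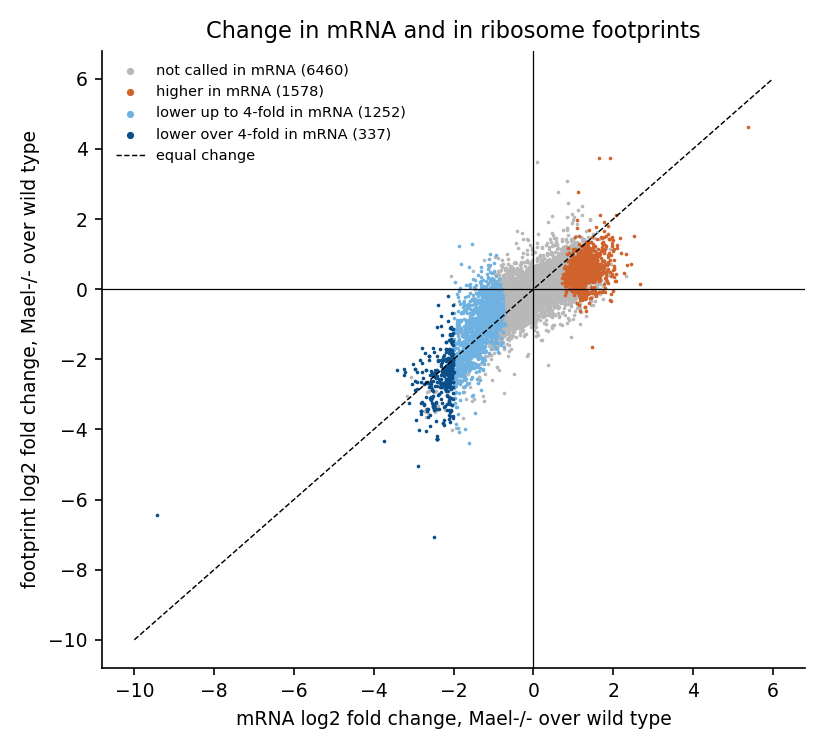
Log2 fold change (Mael-/- over wild type) in footprints (vertical) against that in mRNA (horizontal) for the 9627 transcripts tested in both, coloured by the mRNA call, with a dashed line of equal change. Deep mRNA falls lie around or below the line (medians -2.51 and -2.20), while rises lie below it (medians 0.52 and 1.18).

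Small RNA counted on the same coding transcripts had class medians in the same order, though few single changes were called. Its fit called 155 higher and 96 lower of 6538 coding transcripts (edgeR, adjusted p under 0.05). Over the 6020 that were tested in mRNA too, the median log2 fold change was 0.17. In a fit of the 4 small RNA libraries over coding transcripts, the median log2 fold change was -1.02 for the 197 deep falls tested, -0.56 for 971 smaller falls, 0.27 for 4204 transcripts not called and 1.27 for 648 rises. The small RNA tables count 15 to 50 nt RNA over whole transcripts, and they do not separate piRNAs from fragments of mRNA.

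In RNA precipitated with anti-Mael, the transcripts that fell had a median ratio close to the rest, while high ratios were most common among deep falls. The median log2 ratio of anti-Mael (mean of 2 libraries) to IgG (1 library), with 0.5 CPM added to each, was -0.08 for deep falls, -0.21 for smaller falls, -0.19 for transcripts not called and -0.25 for rises. A ratio above 4-fold was present in 19 of the 602 deep falls (3.16%) and in 104 of all 11181 tested transcripts (0.930%). The share was 1.09% of smaller falls, 0.879% of transcripts not called and 0.236% of rises. Copies that share reads may each be counted in these shares. There is only 1 IgG library, so its own variation is unknown.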

How the data were processed

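Per the submitters' processing notes, reads were handled with CASAVA 1.8, Bowtie2 2.0.6 and TopHat2 2.0.7 and build mm9, with no role given. The deposited values are raw counts of reads per transcript, not normalized. The size column of the mRNA and footprint tables is read as codons with 20 left out: the whole transcript size, from the immunoprecipitate tables, equals 3 times the size plus 60 nt for 2023 of 18286 transcripts and is 1 nt shorter for 29, and never less. The counted coding length thus leaves out 20 codons, and no source used here says which. The length classes were set in nt and applied to 3 times the size.

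Mael-/- was tested against wild type with edgeR 4.0.16 in R 4.3.3 (quasi-likelihood test, TMM scaling, filterByExpr, genotype as the only term, 4 libraries), with Benjamini-Hochberg adjustment over all transcripts tested and an adjusted p of 0.05. The SE is the log2 fold change divided by the square root of the F statistic. Footprints, and small RNA over coding transcripts, were fitted the same way. DESeq2 1.42.0 was an alternative. CPM are counts scaled to 1000000 coding-transcript counts per library. A count of 0 allows up to 3 counts, which covers counting error only, since reads carry no molecular identifiers and are not independent. On simulated counts with 200 changed transcripts, 69% of 4-fold and 4% of 2-fold changes were recovered among 11181 for mRNA (6 of 79 calls false), and 93% and 66% among 9783 for footprints (8 of 167 false). The data held far more calls (1979 lower and 1696 higher in mRNA), and the adjusted p depends on how many transcripts change. These recovery rates therefore do not carry over to the data.

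The transcripts given by identifier are the 2 per direction with the largest change among called transcripts whose mean reached 5 CPM and whose genotypes did not overlap. The members, lists and classes were chosen with earlier results of these data known, and the single coding sizes, the length outside the coding part and the rule for a library that stands apart after the values were seen. Gene lists by symbol could not be applied. Other tools were Python 3.11.15, numpy 2.4.6, pandas 2.3.3, scipy 1.17.1 and matplotlib 3.10.9.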

Additional observations from a re-analysis of the deposited data

How the results depend on the processing

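The counts of called transcripts depended on the processing. The mRNA count of 1696 higher transcripts became 3287 with library totals, 710 with DESeq2 size factors in edgeR, 885 with DESeq2 and 2766 with a replicate block, and 1979 lower stayed within 1.5 times under these. The count of 51 rises over 4-fold became 176, 29 and 10 under the first 3, 108 with no filter beyond 1 count and 20 at a mean of at least 5 CPM. That of 602 falls over 4-fold became 337 with library totals. In footprints, 1102 higher became 1731 with library totals and 373 with DESeq2. Leaving out 1 library gave 0 to 1461 higher and 0 to 2703 lower mRNA calls, 0 to 100 and 0 to 1253 beyond 4-fold, and 700 to 880 higher and 1706 to 1925 lower footprint calls. The share of rises among calls was 46.1% for mRNA, 27.9% with DESeq2 and 51.0% with the replicate block, and for footprints 35.7%, 49.8% with library totals and 20.5% with DESeq2. Letters a and b are shared between genotypes, but no label pairs them, and the a minus b differences of the genotypes correlated with r = 0.156 in mRNA and -0.138 in footprints, so the block was not used in the report. Of 44 values of the 4 named transcripts under alternatives, 34 kept their call and 10 lost it. All had the same sign, which the choice of transcripts without overlap all but fixed. Of 281 class medians, 237 moved by less than the spread between pairs of libraries. The fixed gene lists were not run, because no identifier matched. The mRNA depth of Mael-/- b limits low transcripts, where 3 counts are 0.726 CPM.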

Other observations

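At equal depth the Mael-/- libraries showed counts in more coding transcripts. All 4 libraries were set, by calculation, to the 4130509 counts of Mael-/- b. Then 13370 and 13628 transcripts would have counts in wild type a and b, and 13969 and 14201 in Mael-/- a and b. At full depth the numbers were 14536, 14131, 14326 and 14201. The 1000 most abundant transcripts of each library held 60.9% of counts in both wild-type libraries, 57.1% in Mael-/- a and 55.4% in Mael-/- b, while the 100 most abundant held 21.2% to 22.8% in all 4. These are values with no test.

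No abundant transcript had 0 counts in both Mael-/- libraries. The deepest fall, ENSMUST00000038782, still left 39 and 6 counts in Mael-/- a and b, from 38599 and 16411 in wild type a and b. Counts in wild type with 0 in both Mael-/- libraries were found for 660 transcripts, none with more than 34 wild-type counts in all. The reverse, 0 in both wild-type libraries, held for 794 transcripts, with at most 111 Mael-/- counts. Among tested transcripts, 152 in 64 sets had the same count as another in each of the 4 mRNA libraries, the largest set holding 7. Of these 152, 30 fell by over 4-fold and 18 were called higher (edgeR). Over all 11181 tested, the shares of such calls were 5.38% and 15.2%.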
